A study of Talinum fruticosum with 24 samples.

Results

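In waterleaf leaves treated with abscisic acid (ABA), 131 of 16461 features (0.796%) lay above the mock leaves later on the day of treatment and below them on the next morning. A feature is 1 identifier in the deposited count lists. The set was chosen by these measured differences, among features averaging 10 or more counts per library in the 24 libraries. Counts were scaled to a common library total (CPM) with TMM correction for composition, and at each harvest the mean log2(CPM + 1) of the mock libraries was subtracted from that of the ABA libraries. The largest of these log2 differences at 80, 160 and 320 min had to be at least 0.8, and the one at 1280 min had to be at most -0.8. The 4 harvests named in this rule therefore describe the set and do not test it. The harvests at 40 and 640 min were not used by the rule, and all tests below compare group means of their libraries, with a spread estimate per feature that all 24 libraries share.

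The plants were Talinum triangulare, deposited as Talinum fruticosum, grown in soil to the age of 2 months with 12 h of light per day and watered alike. Leaves were sprayed with 200 µM ABA or with a mock solution of methanol and Tween-20, which the ABA solution also held, 4 h into the light period, and again 4 h later. Counted from the first spray, leaves were taken at 40, 80 and 160 min, then at 320 min, in the night at 640 min (2.67 h after lights off) and on the next morning at 1280 min (1.33 h after lights on). Each of the 12 combinations of treatment and harvest had 2 libraries, and each library came from a different plant whose treated leaves were pooled. The second spray preceded the last 3 harvests, and time of day, elapsed time and the number of sprays cannot be told apart in these groups.

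ABA is the plant hormone of water deficit. Its receptors hold back phosphatases that otherwise keep protein kinases silent, and the released kinases close stomata and switch on transcription of stress genes. In Arabidopsis, many transcripts that respond to ABA also follow a daily rhythm, and the circadian clock changes how strongly leaves respond to the hormone at different hours. Waterleaf belongs to the plants that can pass from C3 photosynthesis to crassulacean acid metabolism, in which carbon dioxide is fixed at night.

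Library totals ran from 16577222 to 26846579 counts, and 18389 to 19030 features had counts in a library. The files do not pair identifiers with gene names, so the 131 features are described by their behaviour, with a few identifiers for each comparison, and no sequence is shown. CPM is not corrected for transcript length, and levels are therefore compared within a feature only. In whole leaves, fewer cells of a type and less RNA per cell cannot be told apart. The mean count of the 131 features ran from 13.8 to 25610, with a median of 683 counts, and 130 of them averaged 50 counts or more.

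The typical feature of the set was high at 40 min in mock leaves, sank through the afternoon, and stood above its 40 min level on the next morning. These 40 and 1280 min harvests lay 4.67 h and 1.33 h after lights on, so they differ in hour as well as in day. In ABA leaves it sank later and came back less far. Relative to each feature's own mock mean at 40 min, the median log2 level in the 2 mock libraries was -0.29 and -0.33 at 80 min, -0.53 and -0.50 at 160 min, -1.14 and -1.31 at 320 min, and 1.15 and 1.11 at 1280 min. In the 2 ABA libraries it was 0.40 and 0.23 at 80 min, -0.07 and 0.08 at 160 min, -0.66 and -0.62 at 320 min, and -0.04 and -0.18 at 1280 min. The medians of both ABA libraries thus lay above those of both mock libraries at 80, 160 and 320 min and below them at 1280 min. The single features varied more, since the rule needed a difference of 0.8 at 1 of the early harvests and not at the others. The difference of group means was above 0 in 101 of the 131 at 80 min, in 106 at 160 min and in 97 at 320 min, and below 0 in 30, 25 and 34. At 640 min the mock medians were -1.37 and -1.19 and the ABA medians -0.86 and -0.89, so the ABA libraries were still the higher ones in the night.

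**Figure D1:**
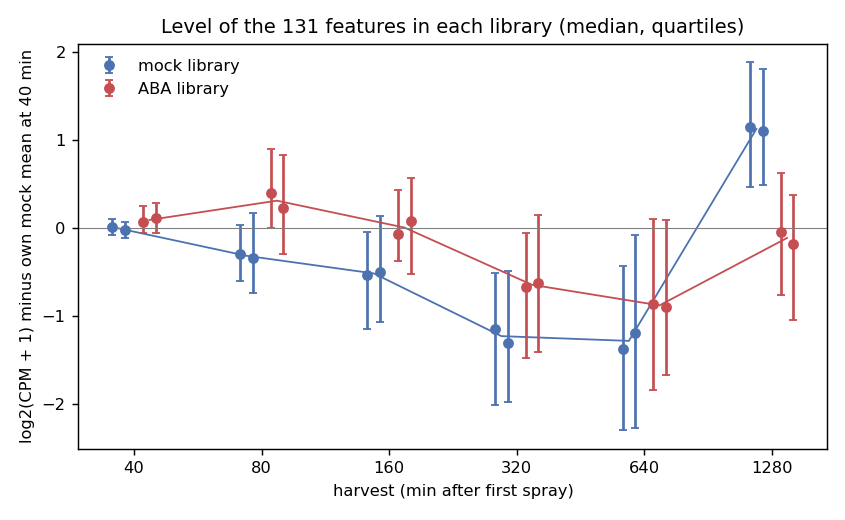
Each point is 1 library and shows the median over the 131 features of log2(CPM + 1) minus the feature's own mock mean at 40 min (vertical axis), at each harvest in min after the first spray (horizontal axis, evenly spaced). Bars span the quartiles over features and lines join the means of the 2 libraries. Mock libraries fall to -1.37 and -1.19 at 640 min and stand at 1.15 and 1.11 at 1280 min, while ABA libraries end at -0.04 and -0.18.

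As a share of the library total, without the TMM correction for composition, the set was largest in mock leaves on the second morning. The TMM factors at 1280 min were 0.713 and 0.770 in mock libraries and 1.12 and 1.26 with ABA. It took up 0.888% and 0.912% of the counts in the mock libraries at 40 min, 0.681% and 0.641% at 320 min, and 2.26% and 2.34% at 1280 min. In ABA libraries it took up 0.995% and 1.03% at 40 min, 1.30% and 1.61% at 320 min, and 1.42% at 1280 min in the first library and 1.41% in the second. At 80 min it took up 0.904% and 1.43% in mock libraries and 1.55% and 1.15% with ABA, and at this harvest the groups overlapped. A few heavily counted features with wide replicate spread weighed on these shares. KMT17338 alone held 12211 of the 199590 counts of the set in mock replicate 1 of 80 min and 53319 of 382581 in mock replicate 2. With ABA it held 28821 of 366528 and 6735 of 243586. Features with nearly its course, described below, added to this spread. In the mock libraries of 80 min, 1 of them held 9615 and 44084 counts and another 9360 and 39924. The shares therefore do not rest on separate features alone. At 160 min the whole set took up 1.23% and 1.17% in mock libraries and 1.46% and 1.77% with ABA. At 640 min it was 0.726% and 1.002% in mock libraries and 1.185% and 1.268% with ABA. The groups thus overlapped at 80 min only. At the other harvests the ABA libraries were higher, except at 1280 min, where they were lower.

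The early harvests at which the difference reached the threshold varied among the features. The log2 difference reached 0.8 at 1 of the early harvests in 95 features, at 2 of them in 21 and at all 3 in 15. It was largest at 80 min in 47 features, at 160 min in 26 and at 320 min in 58. Several of the 58 ran nearly the same course as KMT17338, described below, so the 58 are not all separate courses. The median of the largest early difference was 1.13, with a range of 0.81 to 2.85, and 7 features reached at least 2. At 1280 min the median difference was -1.13, with a range of -3.96 to -0.80, and 10 features were at -2 or below. With scaling to library size alone the median difference of the same features at 1280 min was -0.49, beside 0.56 over all features, and it was -1.05 relative to the median of all features, in place of -1.16 with TMM. In 16 features the difference was also -0.8 or lower at another of the early harvests, and for 11 of these features that was so at 320 min. At the edges of the rule, the lowest early differences inside were 0.8059 and 0.8083 and the highest outside were 0.797 and 0.7945. For 1280 min the values were -0.8022 and -0.8085 inside and -0.7996 and -0.7977 outside.

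The replicates were apart at both ends for nearly all of the set. Both ABA libraries lay above both mock libraries at the harvest of the largest early difference in 130 of the 131 features, against 48.3% of all 16461. At 1280 min both ABA libraries lay below both mock libraries in 127, against 34.5% of all, and 126 features met both conditions. The rule chose for these contrasts, so the shares carry no further weight. Replicates were more variable in the set than over all features in both treatments from 80 to 640 min and at 1280 min with ABA. In these groups the median SD of log2(CPM + 1) ran from 0.11 to 0.25 in the set and from 0.08 to 0.17 over all features, and it was 0.25 against 0.17 at 1280 min with ABA. In the other groups it was 0.12 against 0.12 in mock leaves at 40 min, 0.08 against 0.09 with ABA at 40 min and 0.10 against 0.11 in mock leaves at 1280 min.

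**Figure D2:**
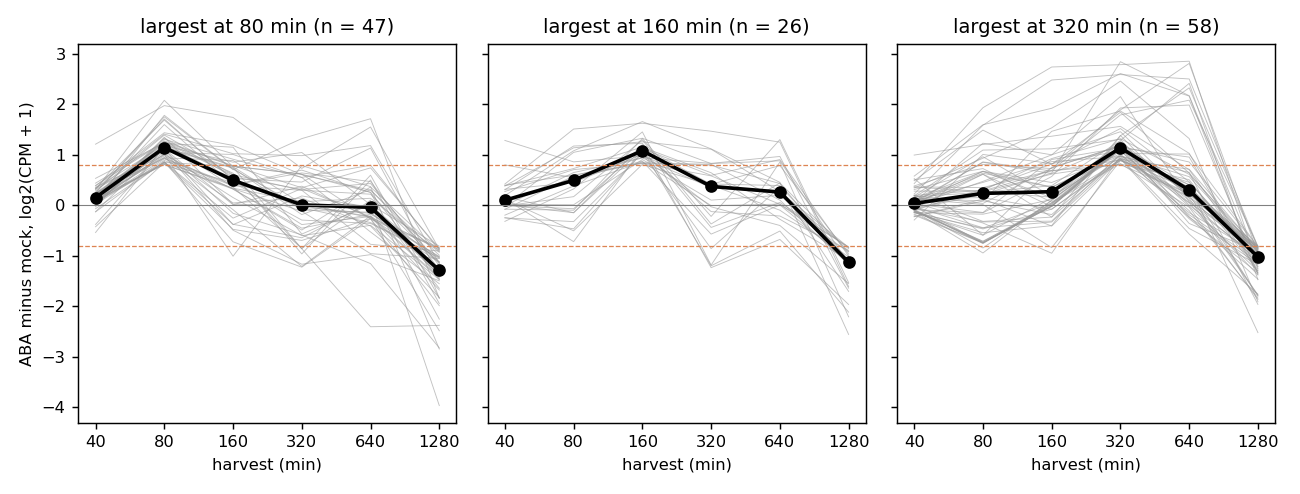
Each grey line is 1 of the 131 features and shows the ABA minus mock difference in mean log2(CPM + 1) (vertical axis) by harvest in min (horizontal axis, evenly spaced), in 3 panels by the harvest of the largest early difference. Black lines are medians and dashed lines mark 0.8 and -0.8. The medians at 640 min are -0.04, 0.26 and 0.30 in the panels for 80, 160 and 320 min, and the medians at 1280 min are -1.29, -1.13 and -1.02.

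Among features with the largest difference at 80 min, KMS97584 and KMT17749 had the widest swings. KMS97584 had 85.1 and 109.8 CPM in the ABA libraries at 80 min against 26.5 and 29.6 in the mock libraries. On the next morning it had 14.3 and 7.64 CPM with ABA against 47.7 and 33.9. Its ABA libraries moved from the highest level of their course to the lowest, while the mock libraries dipped in between to 8.64 and 7.45 CPM at 320 min. KMT17749 had 16.8 and 15.9 CPM with ABA at 80 min against 4.67 and 3.94 in mock leaves. At 320 min its groups overlapped, with 2.91 and 1.38 CPM with ABA against 3.13 and 2.82. On the next morning mock leaves had 37.8 and 35.5 CPM and ABA leaves 9.82 and 11.8, so this feature came back in both treatments and less far with ABA.

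With the largest difference at 160 min, KMT05210 and KMS98430 were above mock at all 3 early harvests. KMT05210 had 41.8 and 66.6 CPM with ABA at 160 min against 15.7 and 16.4 in mock leaves. At 1280 min it had 2.73 and 2.81 CPM with ABA against 19.5 and 23.0. Between these harvests the ABA level thus dropped far more than the mock level changed. KMS98430, a weakly counted feature, had 5.82 and 4.94 CPM with ABA at 160 min against 1.24 and 0.898. At 1280 min it had 3.75 and 3.56 CPM with ABA against 13.0 and 13.4, and here the mock level moved more than the ABA level between the harvests. Its mock libraries held 2 and 7 counts at 320 min.

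With the largest difference at 320 min, KMS98872 and KMT08057 took opposite courses in mock leaves. KMS98872 went in mock leaves from 33.4 and 32.8 CPM at 40 min to 5.59 and 5.29 at 320 min, while ABA leaves still had 27.6 and 43.0 CPM. On the next morning it stood at 167.6 and 239.7 CPM in mock leaves and at 51.2 and 54.1 with ABA. KMT08057 went the other way, from 115.1 and 110.9 CPM at 40 min to 328.9 and 343.5 at 320 min in mock leaves, and to 902.7 and 949.9 CPM with ABA. At 1280 min it had 72.7 and 70.7 CPM in mock leaves and 17.6 and 22.9 with ABA. Its ABA libraries thus had both the highest and the lowest values of the whole course, and its groups were apart at each of the 4 harvests of the rule.

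**Figure D3:**
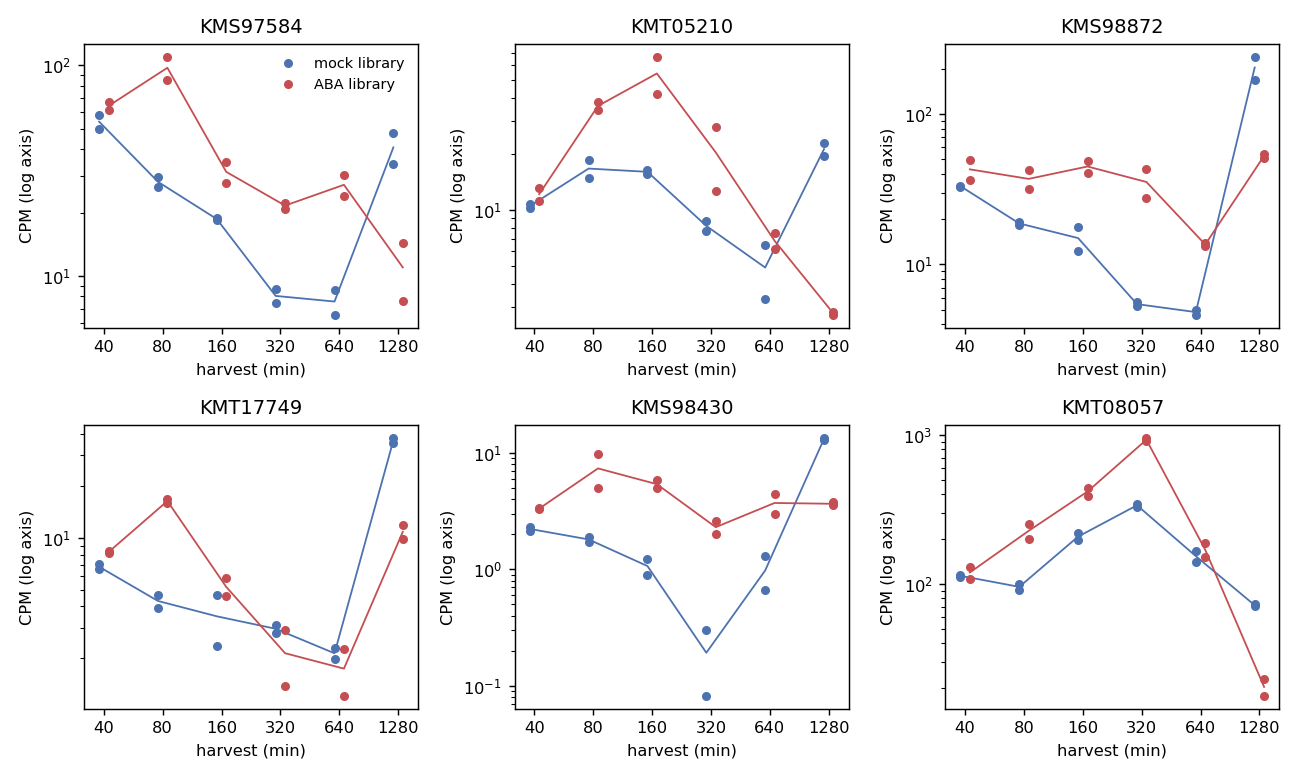
CPM on a log axis (vertical) of 6 features with wide swings by harvest in min (horizontal axis, evenly spaced). Each point is 1 library and lines join the means of 2. ABA libraries (red) lie above mock libraries (blue) at the harvest of the largest early difference and below them at 1280 min, for example 902.7 and 949.9 against 328.9 and 343.5 CPM at 320 min in KMT08057, and 17.6 and 22.9 against 72.7 and 70.7 at 1280 min.

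At 40 min, the first of the harvests that the rule did not use, the ABA effect was small. In edgeR's quasi-likelihood test on all 17561 tested features, 2 of the 131 were higher with ABA (Benjamini-Hochberg adjusted p under 0.05), against 0.125% of all tested features. None was lower, against 0.00569% of all tested features, and DESeq2 also called none lower. In edgeR, 8 of the 131 had an unadjusted p under 0.05, against 694 of all 17561 tested features. Of these, 0 of the 8 were lower with ABA, against 357 of the 694. The median log2 fold change was 0.10, with 88 of 131 values above 0, beside a median of 0.00 over all tested features. KMT07753 had 56.4 and 43.9 CPM with ABA against 22.0 and 19.9 in mock leaves, or 1.26 ± 0.18 as a log2 ratio (standard error; adjusted p = 0.0013 in edgeR). KMT13333 had 40.5 and 26.1 CPM with ABA against 13.1 and 12.4, a log2 ratio of 1.39 with a standard error of 0.24 (adjusted p = 0.019, edgeR). Both were already apart from mock leaves within the first hour of the treatment, before the harvests that chose them. Neither call held without ABA replicate 1 of 40 min (adjusted p = 0.0571 and 0.678), and that of KMT13333 was also lost without mock replicate 1 (adjusted p = 0.241), without mock replicate 2 (adjusted p = 0.174) and when only the 8 libraries of 40 and 640 min were fitted (adjusted p = 0.163). Over all alternatives the adjusted p in edgeR or DESeq2 ran from 5.9e-05 to 0.678 for KMT13333 and from 1.71e-07 to 0.0571 for KMT07753.

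In the night, at 640 min, more features of the set were above than below the mock leaves. In edgeR, 32 of 131 were higher with ABA, against 11.2% of all tested features, and 8 were lower, against 13.6%, while 91 did not pass the threshold. The median log2 fold change was 0.19 with quartiles of -0.19 and 0.82, and over all tested features the median was -0.02. Of the features with the largest early difference at 320 min, 18 of 58 were higher, of those at 160 min 8 of 26, and of those at 80 min 6 of 47, and these shares were not tested against each other. Of the 15 features that were above mock by 0.8 at all 3 early harvests, 9 were higher at 640 min and none was lower, and of the 95 with 1 such harvest, 16 were higher and 8 lower. The 8 lower features included 6 with the largest difference at 80 min.

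KMT00526 and KMT01049 lay furthest above mock leaves with ABA at 640 min. KMT00526 had 35.9 and 28.6 CPM with ABA against 3.33 and 3.81 in mock leaves, that is 3.17 ± 0.29 on the log2 scale (standard error, with edgeR adjusted p = 1.18e-06). By 1280 min it had 11.8 and 8.74 CPM with ABA against 19.4 and 31.6, so that the order of the groups turned between these harvests. KMT01049 had 76.6 and 108.1 CPM with ABA at 640 min against 10.2 and 14.2, or 2.92 ± 0.28 as a log2 ratio (standard error; adjusted p = 2.01e-06 in edgeR). Its ABA libraries then stayed at 90.1 and 86.3 CPM at 1280 min while the mock libraries stood at 167.3 and 177.4. In both features the ABA libraries were far above the mock libraries at night and below them in the morning, in the first with a lower ABA level and a higher mock level, in the second with a higher mock level alone.

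KMT07558 and KMT08187 lay furthest below mock leaves with ABA at 640 min, before the harvest that the rule used for the lower side. KMT07558 had 6.34 and 2.34 CPM with ABA against 28.4 and 22.3, a log2 ratio of -2.54 with a standard error of 0.48 (adjusted p = 0.00107, edgeR). At 320 min it had 2.33 and 1.06 CPM with ABA and 3.41 and 4.12 in mock leaves. Its gap at 640 min thus went with a rise in mock leaves, not with a fall in ABA leaves. KMT08187 had 1.42 and 1.38 CPM with ABA against 3.33 and 4.01, that is -1.38 ± 0.19 on the log2 scale (standard error, with edgeR adjusted p = 4.23e-05). Both had their largest difference at 80 min, with 9.91 and 8.21 CPM against 4.24 and 2.92 for KMT07558. The count of 8 lower features of 640 min became 3 and 4 when mock replicates 1 and 2 of that harvest were left out, and 3 and 2 when its ABA replicates 1 and 2 were, whereas the count of 32 higher features stayed between 25 and 31. With scaling to library size alone the counts were 41 higher and 4 lower, against 16.5% and 8.26% of all tested features, with a median of all features of 0.20.

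**Figure D4:**
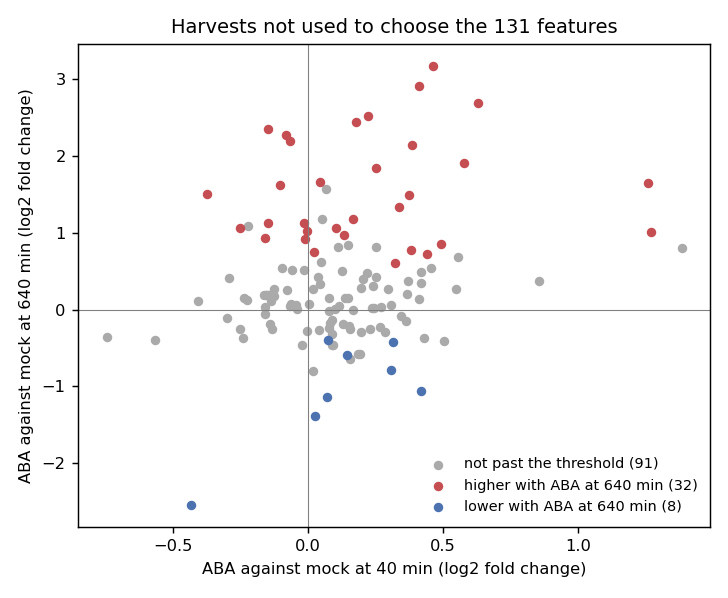
Each point is 1 of the 131 features, with the log2 fold change of ABA against mock leaves at 40 min (horizontal axis) and at 640 min (vertical axis). Red points (32) were higher and blue points (8) lower with ABA at 640 min in edgeR, and grey points (91) did not pass the threshold. The points spread more along the vertical axis, and the 32 higher features reach a log2 fold change of 3.17.

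The ABA effect changed between 40 and 640 min for 21 features of the set. By edgeR's interaction test it was higher at 640 min than at 40 min for 19, against 3.29% of all tested features, and lower for 2, against 5.01%. KMT00526 had the log2 fold change of 3.17 at 640 min after 0.46 ± 0.27 (SE) at 40 min, a change of 2.71 ± 0.39 (SE; edgeR adjusted p = 0.000627). In KMT08187 it went from 0.03 ± 0.15 (SE) to -1.38, a change of -1.41 ± 0.24 (SE; edgeR adjusted p = 0.00175). The count of 19 was 11 and 12 without mock replicates 1 and 2 of 40 min, 8 and 10 without ABA replicates 1 and 2 of 40 min, 11 without mock replicate 1 and 12 without ABA replicate 2 of 640 min. The count of 2 was 1 without mock replicate 1 of 40 min, ABA replicate 2 of 40 min, mock replicate 1 of 640 min or ABA replicate 2 of 640 min.

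A property that the rule did not ask for was a fall from day to night in leaves without ABA. Between 40 and 640 min, 83 of the 131 features fell in mock leaves, against 25.7% of all tested features, and 17 rose, against 26.6%. The median log2 fold change was -1.28 with quartiles of -2.61 and -0.39, beside 0.04 over all tested features. In ABA leaves 73 fell, against 26.8%, and 19 rose, against 28.8%, with a median of -1.01. Both treatments shared 70 of the falling features, and 12 rose in both. Of the 83 that fell in mock leaves, 26 were higher with ABA at 640 min and 4 were lower. Both calls use the mock libraries of 640 min, so a low mock level there favours both at once. Such joint counts were not made over all tested features, so these describe the set only.

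KMT20206 and KMT01113 fell most in mock leaves. KMT20206 had 207.4 and 212.2 CPM at 40 min and 0.370 and 0.232 CPM at 640 min, from 10 and 7 counts, or -9.44 ± 0.29 as a log2 ratio (standard error; adjusted p = 6.78e-14 in edgeR). It was back at 193.7 and 200.4 CPM at 1280 min in mock leaves and reached 58.9 and 53.1 with ABA. KMT01113 had 387.8 and 391.6 CPM at 40 min and 2.63 and 3.41 CPM at 640 min, a log2 ratio of -7.01 with a standard error of 0.56 (adjusted p = 2.42e-08, edgeR). On the next morning it stood at 2225 and 1979 CPM in mock leaves and at 362.3 and 234.3 with ABA. Both stayed below 10 CPM at night in either treatment, and in both the ABA leaves regained less by morning, as the rule required. KMT01113 also crossed mock leaves earlier, with 280.2 and 323.9 CPM with ABA at 160 min against 556.4 and 660.1, between harvests where it lay above them.

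KMT05815 and KMT01275 rose most in mock leaves from day to night. KMT05815 had 28.2 and 35.5 CPM at 40 min and 281.3 and 176.1 at 640 min, that is 2.84 ± 0.58 on the log2 scale (standard error, with edgeR adjusted p = 0.000723). KMT01275 had 1.94 and 2.75 CPM at 40 min and 7.11 and 9.17 at 640 min, or 1.78 ± 0.28 as a log2 ratio (standard error; adjusted p = 3.56e-05 in edgeR). These features show that the set is not of 1 daily course. With scaling to library size alone, which moved the median of all tested features to 1.05 in mock leaves and 1.18 in ABA leaves, 58 of the 131 fell and 35 rose in mock leaves, against 8.01% and 66% of all, and 45 fell and 43 rose in ABA leaves, against 8.81% and 69.3%. KMT01275 then had a log2 fold change of 2.78. The count of 17 rising in mock leaves was 10 without mock replicate 1 of 40 min and 11 without mock replicate 1 of 640 min. The count of 19 rising in ABA leaves was 11 without ABA replicate 1 of 40 min, 11 without ABA replicate 2 of 40 min and 12 without ABA replicate 1 of 640 min.

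The lower level with ABA at 1280 min went with a strong morning return in mock leaves. From 640 to 1280 min the median over features of each feature's own log2 change was 2.12 in mock leaves and 0.49 in ABA leaves. In mock leaves 105 of 131 features were up by at least 1 on the log2 scale over this step, against 16.4% of all 16461 features, and in ABA leaves 48 were, against 13.2%. Mock leaves at 1280 min were 1.11 higher at the median than at 40 min on the day before, a later hour of light. At least 1 higher were 72 of 131 features, against 11.1% of all. In ABA leaves the median over features of the change from 40 to 1280 min was -0.21, with 13 features at least 1 higher, against 12.7% of all, and 31 at least 1 lower, against 13.9%. The highest of the 6 harvests was 1280 min for 89 features in mock leaves, against 30.4% of all features. In ABA leaves it was 1280 min for 26, against 26.4%, and 80 min for 46, against 8.75%. The range between highest and lowest harvest was larger in mock than in ABA leaves in 97 of 131 features (74.0%), against 57.8% of all. The 1280 min libraries chose the set, so these values describe it only.

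The 2 features with the most counts turned in different ways. KMT01970 had 1788 and 2439 CPM with ABA at 320 min against 1081 and 1053 in mock leaves, and 471.7 and 468.7 CPM at 1280 min against 937.6 and 892.6. Its mock libraries stayed within 743.7 and 1279 CPM over the whole course, so both sides of the turn lay in the ABA leaves. KMT17338 had 531.1 and 697.2 CPM with ABA at 320 min against 337.1 and 228.4, and 588.0 and 698.1 at 1280 min against 1195 and 1126. Its replicates differed widely at other harvests, with 655.4 and 2593 CPM in the mock libraries and 1495 and 425.1 CPM in the ABA libraries of 80 min. It passed the threshold in none of the comparisons of 40 and 640 min. Several other features of the set ran nearly the same course over the libraries and also passed in none. In this group the ABA minus mock difference ran from -0.94 to -0.47 at 80 min. It ran from 0.92 to 1.17 at 320 min and from -0.96 to -0.80 at 1280 min. Whether these features share reads was not tested.

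Beside features that shared 1 side of the rule, the set took a middle place at night and had a high share of features that fell from day to night in mock leaves. There were 1519 features that met the early condition but not that of 1280 min, and 2416 that met the condition of 1280 min but not the early one. At 640 min, 59.6% of the first and 1.95% of the second were higher with ABA, compared with 24.4% of the 131. Lower were 1.12% and 52.0%, compared with 6.11%. The fall in mock leaves from 40 to 640 min was called in 35.5% of the first and 52.1% of the second, compared with 63.4% of the 131. In the 79 features with the opposite turn, from lower to higher, it was called in 16.5%, and a rise in 40.5%. In ABA leaves a fall over this step was called in 22.9% of the first and 67.7% of the second, compared with 55.7% of the 131. There the set lay between the first and the second. These shares are given side by side without a test between the sets. The sets were chosen on harvests before and after 640 min, so the middle place with ABA at night is partly built in.

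**Figure D5:**
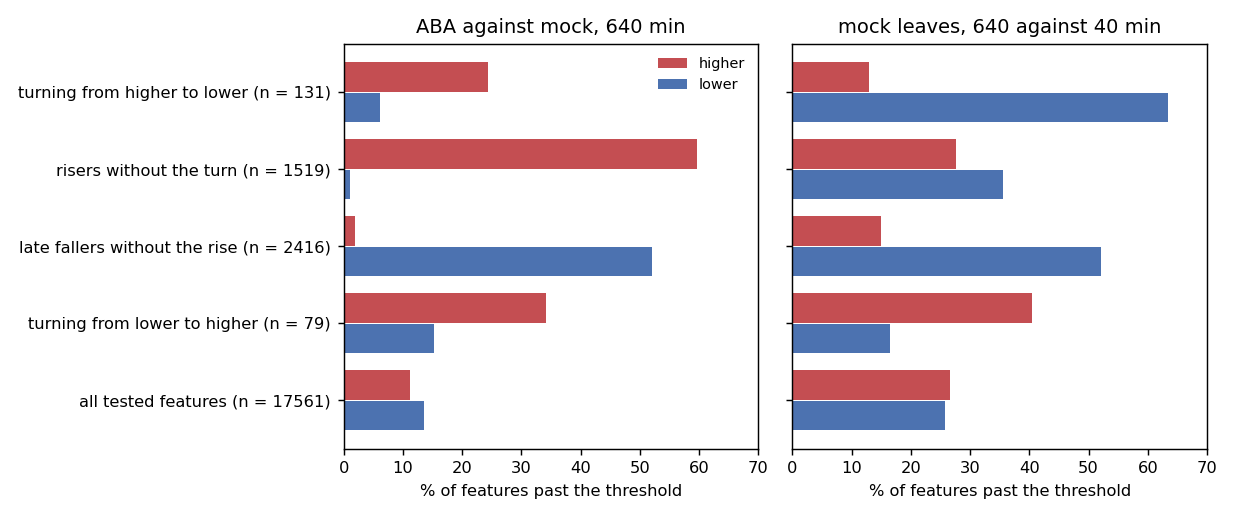
Bars give the share of features past the edgeR threshold (horizontal axis, %), higher in red and lower in blue, for ABA against mock at 640 min (left) and for mock leaves at 640 against 40 min (right), in 5 groups of features (vertical axis, with n). In the 131 turning features 24.4% were higher and 6.11% lower with ABA at 640 min, and 63.4% were lower in mock leaves at 640 than at 40 min, against 25.7% of all tested features.

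Membership itself depended on scaling and on single libraries. With scaling to library size alone, which set the median difference of all features at 1280 min to 0.56 in place of 0.04, 46 features met the rule, and 33 of them were among the 131. All 131 still had a negative difference at 1280 min under that scaling, 34 of them at -0.8 or below, and 127 still reached 0.8 at an early harvest. Leaving out 1 of the 16 libraries of the rule gave 120 to 173 features, and 56 of the 131 were kept each time.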

How the data were processed

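Per the labels' protocols, leaf mRNA was made into stranded libraries and sequenced as single reads of 150 bases. Each deposited list gives raw read counts for 1 library, and a feature missing from it was taken as 0. CASAVA, Trimmomatic and DESeq2 appear in the submitters' processing notes, with no role stated. For the aligner, the reference sequences and the counting rules (strand, reads with several matches), nothing is stated in the sources used here. Near-identical or overlapping features may share reads.

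R 4.3.3 and edgeR 4.0.16 were used. TMM factors (0.659 to 1.69) for the rule came from the 16461 features of the count minimum. The tests kept 17561 features (filter by group, minimum count 10), with all 131 among them. A robust quasi-likelihood fit to 24 libraries, with 1 mean per treatment and harvest and 12 residual degrees of freedom, gave two-sided tests, adjusted by Benjamini-Hochberg over all tested features (threshold 0.05). Standard errors restate the F-test. The fit was tested on simulated counts, and DESeq2 1.42.0 was an alternative.

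The members and the rules for naming features were chosen with earlier results of these data known. Named features averaged 50 counts or more and had groups that did not overlap: the 2 with the widest swing (the smaller of the early difference and the size of that at 1280 min) per early peak harvest, and the 2 highest and 2 lowest calls at 40 min, at 640 min and in mock 640 against 40 min. The 2 with the highest mean CPM were added without regard to overlap.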

Additional observations from a re-analysis of the deposited data

Results flagged for a closer look

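The effect of ABA differed between 40 and 640 min by edgeR's interaction test for 5 of the named features. The log2 effect at 640 min minus that at 40 min was 1.59 ± 0.33 (SE; edgeR adjusted p = 0.00611) for KMS97584, whose ABA libraries had 24.1 and 30.1 CPM at 640 min against 6.55 and 8.58 in mock leaves. It was 2.71 ± 0.39 (SE; edgeR adjusted p = 0.000627) for KMT00526 and 2.51 ± 0.38 (SE; edgeR adjusted p = 0.000921) for KMT01049. For KMT08187 it was -1.41 ± 0.24 (SE; edgeR adjusted p = 0.00175). For KMS98872 it was 1.12 ± 0.32 (SE; edgeR adjusted p = 0.0368), which did not pass in 10 of 17 alternatives (adjusted p between 0.003 and 0.166). The other 4 calls held in all 17 alternatives.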

How the results depend on the processing

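Of 201 alternative values for counts of features, 151 were within 1.5 times the reported ones, and none of the named features reversed its direction. The number of features meeting the rule was 46 with library size only, 301 with a threshold of 0.6 and 58 with a threshold of 1. With library size only, 4 were lower at 640 min, 1 was lower in the interaction, 35 rose and 58 fell in mock leaves, and 43 rose and 45 fell in ABA leaves. At an adjusted p under 0.01, 1 was higher at 40 min, 3 were lower at 640 min, 8 were higher and 1 lower in the interaction, 10 rose in mock leaves and 10 in ABA leaves. In a fit to the 8 libraries of 40 and 640 min, which holds no library of the rule, 1 was higher at 40 min, 42 were higher and 11 lower at 640 min, 24 were higher and 8 lower in the interaction, and 86 fell in mock leaves and 78 in ABA leaves. DESeq2 gave 4 higher at 40 min and 7 lower in the interaction, and leaving out both second libraries of 320 min gave 1 lower in the interaction. Features chosen again with library size only, an alternative added after seeing the data, numbered 46. Of these, 0 were higher at 40 min and 7 at 640 min, against 0.125% and 11.2% of all tested features. The 7 of 46 lay nearer to the share of all features than the 32 of 131. In the interaction 4 were higher and 1 lower, against 3.29% and 5.01%. In mock leaves 7 rose and 30 fell, against 26.6% and 25.7%. In ABA leaves 5 rose and 27 fell, against 28.8% and 26.8%. Leaving out 1 library gave 0 to 2 higher at 40 min, 25 to 31 higher and 2 to 8 lower at 640 min, 8 to 14 higher and 1 to 3 lower in the interaction, 10 to 16 rising and 77 to 83 falling in mock leaves, and 11 to 19 rising and 64 to 73 falling in ABA leaves; a lone library was assumed to vary like the other groups. Replicate numbers did not pair the plants: deviations of same-numbered ABA and mock libraries correlated at -0.0101 at 40 min and 0.0141 at 640 min, and between -0.102 and 0.0989 over the 6 harvests. With the replicate number as a block, 4 were lower in the interaction in place of 2, and with a replicate block within harvests 33 were higher and 8 lower at 640 min and 2 were higher at 40 min. Depth was lowest for KMS98430 among the features named, with 2 and 7 counts in the mock libraries of 320 min.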
